A study of Macaca fascicularis with 9 samples.

Results

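Cluster 9 of the myeloid nuclei held 2414 of the 5727 nuclei that the authors named Myeloid, out of 79994 nuclei in all, in the thalamus of 9 female cynomolgus monkeys. Its members were taken from the deposited table of nuclei, as those with the cell type Myeloid and the cluster number 9. The other 3313 myeloid nuclei carried the cluster number 7. The 3 saline animals received 4 biweekly intravenous doses of saline. The 3 ASO animals received 1 intrathecal dose of 4 mg of an antisense oligonucleotide (ASO) against MALAT1. The 3 OTV animals were given OTV:MALAT1 intravenously at 30 mpk, in 4 biweekly doses, and in every group the brain was collected 2 weeks after dosing ended. No group received intrathecal saline, so the ASO cannot be told apart from its route and its number of doses. The labels name no genetic change in the animals and no library batch or date. Each animal gave 1 library of nuclei sorted from frozen tissue, and p values below measure the spread between these animals.

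Microglia are the resident macrophages of the brain parenchyma. They survey the tissue, clear debris and synapses, and depend on signalling through the receptor encoded by CSF1R. MALAT1 is an abundant nuclear RNA that encodes no protein, and an antisense oligonucleotide directs the cleavage of its target RNA by RNase H. OTV joins such an oligonucleotide to an engineered Fc fragment that binds the transferrin receptor, the route by which brain endothelium takes up iron-loaded transferrin. Myelin is made by oligodendrocytes, the most numerous nuclei in this dataset.

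Cluster 9 was set apart from cluster 7 mainly by the number of unique molecular identifiers (UMIs), the count of captured RNA molecules per nucleus. The median was 5308.5 UMIs and 2460 detected features in cluster 9, 3222 UMIs and 1815 features in cluster 7, and 6016 UMIs and 2412 features in oligodendrocytes. Within an animal the median of cluster 9 was 1.37 to 1.69 times that of cluster 7. No nucleus of cluster 9 lay below the cluster 7 median of its animal, and 29 nuclei of cluster 7 lay above the cluster 9 median of theirs. In 8 of 9 animals the 10th percentile of cluster 9 was above the 90th percentile of cluster 7, and saline animal 3 was the exception. A single UMI limit per animal put 5376 of the 5727 myeloid nuclei (93.9%, and 89.3% to 95.8% per animal) on the same side as the cluster numbers did. In each animal the limit was the one that best matched the cluster numbers, so this match was fitted. Where 1 cluster is small the match starts high, as in OTV animal 1, with 20.3% of its myeloid nuclei in cluster 9. OTV animal 3 was the shallowest, with a median of 2151 UMIs in cluster 9 and 1275 in cluster 7. Levels of cluster 9 against other clusters are therefore a description here and were not tested, because every gene could have served in the clustering.

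**Figure D1:**
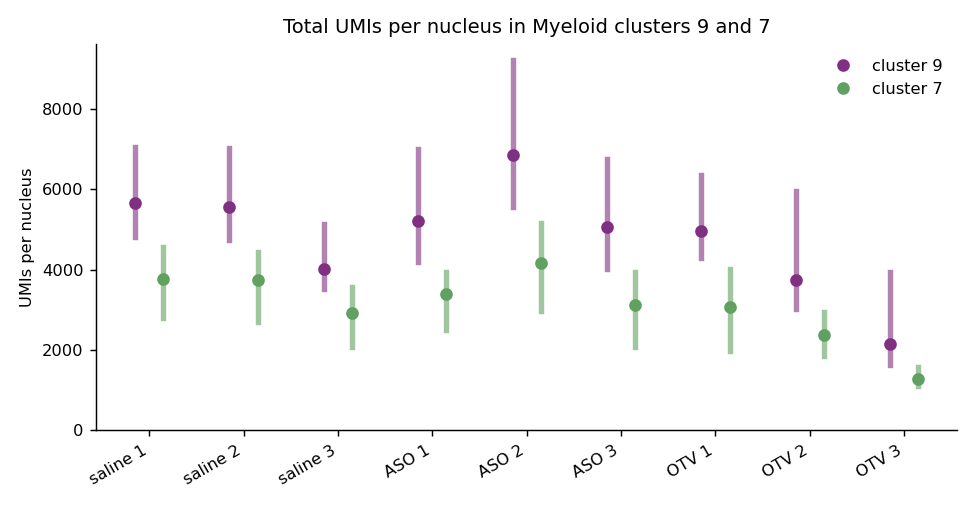
Total UMIs per nucleus (vertical axis) in Myeloid clusters 9 and 7 of each of the 9 animals (horizontal axis). Points are medians and bars run from the 10th to the 90th percentile of nuclei; the bars of the clusters are separate in 8 of 9 animals and meet in saline animal 3.

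The number of cluster 9 nuclei was 314, 353 and 109 in saline animals 1, 2 and 3, 373, 369 and 367 in ASO animals 1, 2 and 3, and 224, 131 and 174 in OTV animals 1, 2 and 3. Cluster 9 made up 39.9%, 46.0% and 23.7% of the myeloid nuclei in the saline animals, 62.0%, 57.0% and 62.5% in the ASO animals and 20.3%, 35.4% and 42.9% in the OTV animals. The ASO animals lay above the other 6. Within an animal the boundary between the clusters follows depth, but it lay at a different depth in each, from 1616 UMIs in OTV animal 3 to 5224 in ASO animal 2. The cluster 9 median was 5661, 5558 and 4017 UMIs in saline animals 1, 2 and 3. It was 5216, 6865 and 5073 in ASO animals 1, 2 and 3 and 4955.5, 3736 and 2151 in OTV animals 1, 2 and 3. This median itself depends on where the boundary lies. The part of depth in these shares was not tested. Summed UMIs of cluster 9 ranged from 443557 to 2642810 per animal. The smallest sums came from OTV animal 3 and saline animal 3.

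The label Myeloid held in cluster 9 by its markers. Levels are given as CPM, the UMIs of a gene per 1000000 of the summed UMIs of a cluster in an animal. CSF1R, the receptor for colony stimulating factor 1, had a mean of 902 CPM over 9 animals (range 785 to 1097) in cluster 9, 862 in cluster 7 and 5.96 in oligodendrocytes. DOCK8, an exchange factor for the GTPase CDC42 in immune cells, had 1372 CPM (1152 to 1712), against 1258 in cluster 7 and 5.05 in oligodendrocytes. APBB1IP, an adaptor that links Ras GTPases to integrin activation, had 1789 CPM (1462 to 2508), against 1646 and 4.89. Each of these genes was thus of like level in both myeloid clusters and near the floor in oligodendrocytes. After every nucleus was thinned to 1000 UMIs, CSF1R had a UMI in 52.9% to 63.4% of cluster 9 nuclei per animal, 49.1% to 63.5% of cluster 7 nuclei and 0.320% to 1.30% of oligodendrocytes. DOCK8 had one in 65.5% to 81.5% of cluster 9 nuclei and 0.348% to 0.931% of oligodendrocytes, and APBB1IP in 71.9% to 88.1% and 0.0989% to 1.05%. At least 5 UMIs of 1000 from the microglia list were present in 2407 of the 2414 nuclei.

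Genes of the microglia list set the cluster apart from oligodendrocytes. All 22 of the 22 measured genes of this list were higher in cluster 9 than in oligodendrocytes. So were all 10 measured border macrophage genes, and this comparison does not tell microglia from border macrophages. P2RY12, the purinergic receptor of resting microglia, had 232 CPM (104 to 417) in cluster 9, 192 in cluster 7 and 2.43 in oligodendrocytes. CX3CR1, the fractalkine receptor, had 721 CPM (345 to 1049), against 667 and 3.36. TMEM119, another microglial surface marker, was low at 9.80 CPM (1.85 to 14.8). The median over the list of the log2 ratio of cluster 9 to cluster 7 was 0.09, and 5 of its genes were higher in cluster 9 in every animal. INPP5D, a phosphatase that restrains immune receptor signalling, was one of them, with 3209.9 CPM against 2975. Border macrophage genes were present too. MRC1, the mannose receptor, had 592 CPM (478 to 714) in cluster 9 and 528 in cluster 7, CD163 had 129 and 126, and LYVE1 had 1.37 and 1.33.

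**Figure D2:**
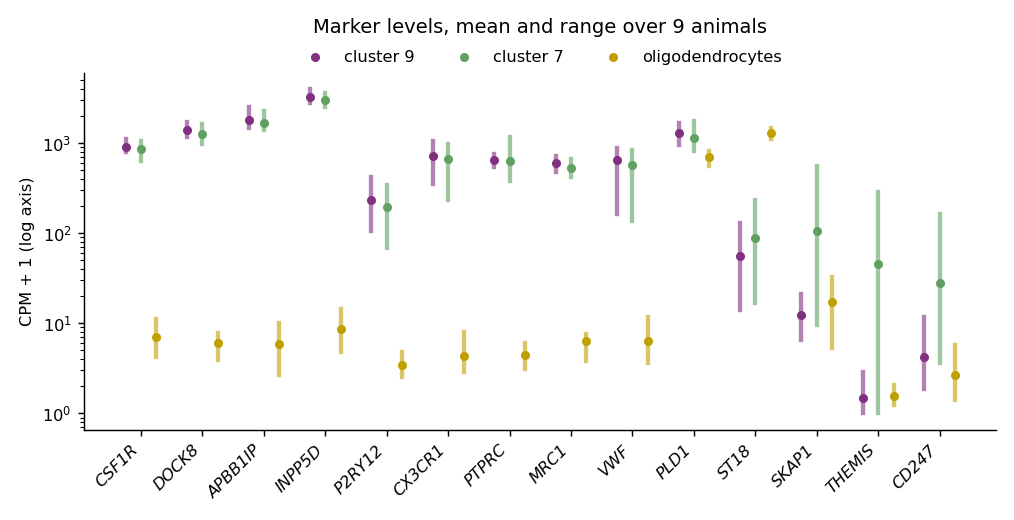
Levels of 14 marker genes (horizontal axis) as CPM + 1 on a log axis in cluster 9, cluster 7 and oligodendrocytes. Points are means over 9 animals and bars the lowest and highest animal; genes from CSF1R to VWF are far above the oligodendrocyte level in both clusters, and SKAP1, THEMIS and CD247 have their highest values in cluster 7.

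Genes of other cell types were checked in the same way. S100A8, S100A9, S100A12 and FCN1, markers of blood monocytes and neutrophils, had 0 UMIs in cluster 9 of every animal, while PLAC8 of the same list had 264 CPM. T cell genes were near 0: THEMIS, needed for T cell development, had 0.470 CPM in cluster 9 and 44.3 in cluster 7, and CD247, the zeta chain of the T cell receptor, had 3.27 and 27.2. At least 3 UMIs of 1000 from the lymphocyte list were found in 1 nucleus of cluster 9 and in 66 of cluster 7, of which 35 were in ASO animal 3 and none in OTV animals. VWF, a glycoprotein of endothelium, had 641 CPM (163 to 872) in cluster 9 and 5.36 in oligodendrocytes, yet the 5 measured endothelial and mural genes summed to 692 CPM, nearly all of it from VWF. SLC1A3, a glutamate transporter, had 1345 CPM (566 to 2319) in cluster 9 and 1944 in astrocytes, while the astrocyte genes AQP4 and GFAP had 10.6 and 7.91 CPM. The 10 measured astrocyte genes summed to 1461 CPM in cluster 9, most of it from SLC1A3, so their share mainly follows 1 gene. The summed astrocyte list took 0.193, 0.186 and 0.257% of cluster 9 UMIs in the saline animals, 0.104, 0.0792 and 0.129% in the ASO animals and 0.173, 0.114 and 0.0812% in the OTV animals, and every treated animal was below every saline animal. In cluster 9, 0 of the 9 tested genes of this list were called for either treatment against saline in edgeR (1 with an unadjusted p under 0.05 in each). Of all 11263 features 0.417% were called with the ASO and 6.9% with OTV, and 1072 and 2573 had an unadjusted p under 0.05. The median log2 difference of the 9 genes was -0.87 with the ASO, 1 of them above 0, and 0.62 with OTV, 6 of them above 0. The part of this list in the differences between groups was not tested. Genes of the cell cycle summed to 39.0 CPM. Oligodendrocyte genes were present at a median of 8.98% of their oligodendrocyte level in cluster 9, 13.2% in cluster 7 and 7.06% in astrocytes. Of the list, 11 of the 24 measured oligodendrocyte genes were lower in cluster 9 than in cluster 7 in every animal.

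Beyond the lists, the myeloid clusters were close. Among 7079 features above 20 CPM in either, 96.6% had a median within-animal log2 ratio between -0.5 and 0.5. In all 9 animals 144 features were higher in cluster 9 and 200 were lower. None was higher by over 2-fold in the median, and 10 were lower by that much. Those higher were led by RIN3, an exchange factor for the endosomal GTPase RAB5, with a median log2 ratio of 0.71, and included CD74, the invariant chain of MHC class II, with 0.46. Lower in cluster 9 were TOX, a transcription factor of T cells, at -2.63 and SKAP1, a T cell adaptor, at -1.87, followed by BTBD11, ADAM23, RIPOR2 and FYN. TOX had 8.32 CPM in cluster 9 and 76.8 in cluster 7, but 326 in oligodendrocyte precursors, 204 in astrocytes and 388 in neurons. BTBD11, ADAM23, RIPOR2 and FYN were likewise higher in neurons than in cluster 7, while SKAP1 was lower there, at 21.1 against 105 CPM. Against oligodendrocytes, 5165 of 7766 features had the same sign in all 9 animals, 3124 higher and 2041 lower in cluster 9. VAV3, a guanine nucleotide exchange factor, stood highest with a median log2 ratio of 8.98, beside PLXDC2, DOCK2, FLI1 and LCP2. DSCAML1, an adhesion molecule, was lowest at -6.24, with KIRREL3, ST18 and MAPT near it.

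Doublet scores were low in cluster 9. The median of the authors' score was 4.12e-04 in cluster 9, 3.85e-04 in cluster 7 and 8.81e-04 in oligodendrocytes. A score over 0.1 was held by 4 of 2414 cluster 9 nuclei (0.166%), 3 of them in saline animal 3 and 1 in OTV animal 3. In cluster 7 it was held by 26 of 3313 (0.785%), and in oligodendrocytes by 3099 of 61578 (5.03%). Median scores of cluster 9 per animal ran from 8.32e-05 to 0.00286, and the exact p by permutation of the 9 animals was p = 0.786 (adjusted p = 0.929). Barcode sequences found in more than 1 library marked 53 cluster 9 nuclei (2.20%), against 1.90% of all nuclei. Libraries held 2956 to 11992 nuclei, and saline animal 3 had the fewest, with 1074 oligodendrocytes.

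MALAT1, the target of both agents, was lower in cluster 9 in each OTV animal than in each saline animal, and in the ASO group 1 animal stood far below the other 2. MALAT1 took 3.25, 2.88 and 2.99% of the cluster 9 UMIs in saline animals 1, 2 and 3, 1.07, 2.49 and 2.91% in ASO animals 1, 2 and 3, and 1.77, 1.69 and 1.67% in OTV animals 1, 2 and 3. The means were 3.04% ± 0.188 (SD, n = 3) with saline, 2.16% ± 0.964 with the ASO and 1.71% ± 0.0509 with OTV. ASO animal 1 had the lowest share of all, below every OTV animal, and ASO animal 3 lay within the saline range. Permuting the 9 animals over the groups in a two-sided exact test gave p = 0.114 (adjusted p = 0.229 over 6 measures), where 0.00357 is the smallest p the design allows. For OTV against saline the exact p was 0.1, the smallest that 3 against 3 animals can give. For ASO against saline it was 0.2, and for OTV against ASO it was 0.4. Without ASO animal 1 the exact p over the 3 groups was 0.0107, and without ASO animal 3 it was 0.0429.

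Fitted across all features with edgeR's quasi-likelihood test, MALAT1 did not pass an adjusted p of 0.05 in cluster 9. Relative to saline the log2 difference was -0.53 (SE 0.30, adjusted p = 0.646) in the ASO animals and -0.89 (SE 0.31, adjusted p = 0.128) in the OTV animals, and between the treatments, as OTV minus ASO, it was -0.35 (SE 0.30, adjusted p = 0.485). The spread of the ASO group enters all 3 of these tests, since the groups share 1 estimate. In a fit of the saline and OTV animals alone the OTV difference was -0.86 with an adjusted p of 0.00491, and without ASO animal 1 it was -0.86 with an adjusted p of 0.00251. DESeq2 gave -0.87 with an adjusted p of 0.0412. Without ASO animal 1, OTV was also lower than the ASO, by a log2 difference of -0.66 (edgeR adjusted p = 0.0107).

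Single nuclei showed the same order within animals. After thinning to 1000 UMIs, the median MALAT1 count per cluster 9 nucleus was 32, 29 and 30 in the saline animals, 8, 25 and 29 in the ASO animals and 18, 16 and 17 in the OTV animals. In ASO animal 1 the 10th and 90th percentiles were 2 and 25 and the range ran from 0 to 55, so that single nuclei of this animal spanned from below the lowest OTV nucleus to the saline range. There, 81 of 373 nuclei (21.7%, Wilson 95% interval 17.8 to 26.2%, counting error only) had at most 3 MALAT1 UMIs of 1000. Among the other 8 animals only 1 nucleus of OTV animal 2 did. Those 81 nuclei had a median of 5547 UMIs, against 5127 in the rest of that animal's cluster 9, and both had a median of 16 UMIs of 1000 from the microglia list. In cluster 7 of the same animal 39 of 229 nuclei (17.0%) had at most 3, and in its oligodendrocytes 16 nuclei (0.164%).

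**Figure D3:**
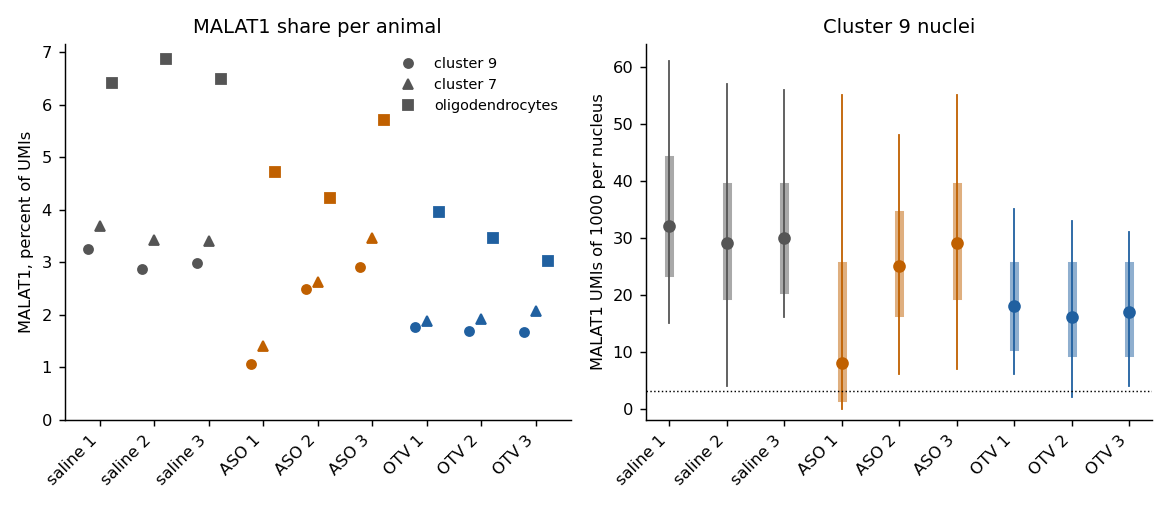
Left, MALAT1 as a percentage of UMIs in cluster 9, cluster 7 and oligodendrocytes of each animal, coloured by group. Right, MALAT1 UMIs of 1000 per cluster 9 nucleus, with the median as a point, the 10th to 90th percentile as a thick bar and the range as a thin line; the dotted line marks 3 UMIs, and the bar of ASO animal 1 reaches below it.

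MALAT1 was also compared with cluster 7 and the oligodendrocytes of the same animals. In cluster 7 the shares were 3.70, 3.43 and 3.41% in the saline animals, 1.42, 2.62 and 3.47% in the ASO animals and 1.88, 1.93 and 2.08% in the OTV animals. Oligodendrocytes had 6.42, 6.87 and 6.48%, 4.73, 4.22 and 5.71% and 3.95, 3.47 and 3.03%. ASO animal 1 was the lowest of 9 in cluster 7, as in cluster 9, while its oligodendrocytes lay above those of ASO animal 2 and of every OTV animal. The log2 ratio of the MALAT1 share in cluster 9 to that in oligodendrocytes was -2.14 in ASO animal 1 and -1.25 to -0.76 in the other 8. The response of cluster 9 differed from that of cluster 7 by a log2 of -0.01 (95% interval -0.23 to 0.21) with the ASO and 0.02 (-0.20 to 0.25) with OTV, each relative to saline, and by 0.03 (-0.19 to 0.26) between the treatments. Against oligodendrocytes the differences were -0.15 (-0.86 to 0.56), -0.05 (-0.76 to 0.65) and 0.10 (-0.61 to 0.81). None of these passed edgeR's test of the interaction, and the intervals against oligodendrocytes are wider than those against cluster 7. TFRC, which encodes the transferrin receptor, had 26.7, 26.8 and 38.6 CPM in the saline animals, 31.0, 34.4 and 38.2 in the ASO animals and 26.7, 31.4 and 40.6 in the OTV animals. Its groups overlapped, with log2 differences of 0.19 for the ASO and 0.07 for OTV against saline (adjusted p = 0.872 and 0.913).

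The intrathecal ASO was followed by few other differences from saline in cluster 9. Of 11263 features tested, 47 (0.417%) passed an adjusted p of 0.05, 21 higher (0.186%) and 26 lower (0.231%). DESeq2 called 159 in the same table. Leaving out 1 animal gave 14 to 69 calls, with 16 without ASO animal 1, 14 without ASO animal 2, 30 without saline animal 2 and 31 without OTV animal 3. TACC2, AFDN and KIAA1549 rose and RHOJ fell in every fit made, including each with 1 animal left out.

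TACC2, a centrosomal protein of microtubule assembly, had 5.45, 4.87 and 4.29 CPM in saline animals 1, 2 and 3, 108, 121 and 103 CPM in ASO animals 1, 2 and 3, and 11.2, 3.70 and 13.5 CPM in OTV animals 1, 2 and 3. The ASO animals were all far above the others. The log2 difference was 4.40 (SE 0.29, adjusted p = 1.96e-05). AFDN encodes afadin, which ties nectin adhesion to actin, and had 32.1, 27.3 and 23.6 CPM in the saline animals, 151, 273 and 201 in the ASO animals and 62.9, 51.8 and 65.4 in the OTV animals. Its ASO animals again lay above all others, and the OTV animals lay above the saline animals. The log2 difference was 2.83 (SE 0.24, adjusted p = 8.42e-05) with the ASO and 1.02 (SE 0.26, adjusted p = 0.0318) with OTV. KIAA1549, a membrane protein, had 22.9, 22.9 and 21.5 CPM in the saline animals, 109, 121 and 174 in the ASO animals and 16.4, 18.5 and 22.5 in the OTV animals. ASO animals alone were high, with a log2 difference of 2.53 (SE 0.22, adjusted p = 1.04e-04). RHOJ, a small GTPase close to CDC42, had 79.5, 82.3 and 62.2 CPM in the saline animals, 1.93, 1.14 and 6.72 in the ASO animals and 139.5, 75.8 and 142 in the OTV animals. It was close to 0 in every ASO animal, with a log2 difference of -4.63 (SE 0.46, adjusted p = 0.00167).

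Other genes named by rule for the ASO comparison were less stable. PAPPA, a protease that frees insulin-like growth factors, had 7.08, 17.5 and 19.3 CPM in the saline animals, 69.6, 66.6 and 62.0 in the ASO animals and 6.89, 3.70 and 9.02 in the OTV animals and rose by a log2 of 2.23 (SE 0.32, adjusted p = 0.0109). BAIAP2, an adaptor that links small GTPases to actin, had 52.8, 47.7 and 70.8 CPM in the saline animals, 15.5, 13.2 and 19.6 in the ASO animals and 57.7, 61.0 and 74.4 in the OTV animals and fell, with -1.83 (SE 0.23, adjusted p = 0.00510). In both genes the ASO animals did not overlap the others, and both lost the call when each nucleus was thinned to 1000 UMIs. PER3, a clock gene, had 209, 164 and 197 CPM in the saline animals, 105, 59.4 and 65.1 in the ASO animals and 149.8, 177 and 180.4 in the OTV animals, with -1.35 (SE 0.20, adjusted p = 0.0140), and its adjusted p was 0.0618 without ASO animal 2 and 0.115 with nuclei thinned. HPGDS, the prostaglandin D synthase of blood cells, had 301, 538 and 378 CPM in the saline animals, 101, 152 and 176 in the ASO animals and 342, 398 and 295 in the OTV animals, with -1.54 (SE 0.24, adjusted p = 0.0285). Its ASO animals were the lowest of the 9. Its adjusted p was between 0.0139 and 0.0961 with 1 animal left out, and it lost the call without ASO animal 1, ASO animal 2 or any of the OTV animals, and also in the fit of 6 animals and with nuclei thinned. Further risers were SDHD, a subunit of succinate dehydrogenase (1.62), FLT1, a receptor for vascular endothelial growth factor (3.20), SGCB (1.31), LRRC66 (1.75) and TUT7, which adds uridines to RNA (0.82). Further genes that fell were CHKA, a choline kinase (-0.86), SLA, a Src-like adaptor (-0.997), PKIB, an inhibitor of protein kinase A (-1.86), LOXHD1 (-1.20), MCF2L (-0.87) and CPNE5 (-1.26). Each of these 11 lost its call under at least 1 fit with an animal left out.

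Few genes of the immune lists were called with the ASO, where 0.417% of all features were. Of the measured genes of the microglia list 0 of 22 were called, and their median log2 difference was 0.00, as over all features (0.00). None of the 17 tested interferon response genes, the 11 nucleic acid sensing genes, the 7 complement genes or the 9 inflammatory cytokine genes passed the test in edgeR, and 2, 0, 1 and 1 of them had an unadjusted p under 0.05, beside 1 of the 22 microglia genes. Over all 11263 features 1072 had an unadjusted p under 0.05. Summed shares of some lists still lay apart. Nucleic acid sensing genes took 0.102, 0.0782 and 0.111% of cluster 9 UMIs in the saline animals and 0.150, 0.176 and 0.139% in the ASO animals, without overlap, although the median log2 difference of the list was -0.12. Activated microglia genes took 0.125, 0.120 and 0.128% and 0.154, 0.145 and 0.166%, also without overlap, with a median of 0.27. A large part of that rise came from 1 gene, CTSB. Other lists lay apart too, the endothelial and mural and lipid handling lists higher and the astrocyte, border macrophage and mitochondrially encoded lists lower with the ASO. These shares were not tested, and 3 against 3 animals can give an exact permutation p of 0.1 at the smallest. CTSB, the lysosomal protease cathepsin B and a member of the activated microglia list, was the 1 of 11 that passed. It had 239, 281 and 178 CPM in the saline animals, 501, 400.3 and 449 in the ASO animals and 417, 457 and 390.0 in the OTV animals. The log2 difference was 0.89 (SE 0.15, adjusted p = 0.0285) with the ASO and 0.78 (SE 0.16, adjusted p = 0.0106) with OTV, and both treated groups lay above the saline animals. With the ASO this call was lost in 5 of the 9 fits with 1 animal left out (adjusted p up to 0.145, without ASO animals 1, 2 or 3, saline animal 1 or OTV animal 3), and with OTV it was kept in all 9 but lost with nuclei thinned to 1000 UMIs (adjusted p = 0.0508). NLRC5, an activator of MHC class I genes, had 91.5, 61.4 and 40.8 CPM in the saline animals, 6.29, 12.1 and 12.9 in the ASO animals and 73.2, 66.6 and 20.3 in the OTV animals, and the log2 difference with the ASO was -2.71 (SE 0.45, adjusted p = 0.0423). MS4A4A, a macrophage membrane protein, had 9.80, 8.28 and 0 CPM in the saline animals, 34.3, 34.4 and 36.2 in the ASO animals and 1.72, 3.70 and 4.51 in the OTV animals, with 2.16 (SE 0.41, adjusted p = 0.0482). It was the 1 of the 7 tested border macrophage genes with a log2 difference above 0. The list's median log2 difference was -0.81, and its summed share was 0.110, 0.102 and 0.128% in the saline animals and 0.0758, 0.0797 and 0.0977% in the ASO animals, all of which were lower. With 1 animal left out, NLRC5 kept its call in 3 of 9 fits, without saline animal 3, OTV animal 1 or OTV animal 3, and MS4A4A in 1, without saline animal 3. The adjusted p of each reached 0.179.

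OTV was followed by more differences from saline. Of the 11263 features 777 (6.9%) passed, 306 higher (2.72%) and 471 lower (4.18%). With each nucleus thinned to 1000 UMIs the split turned, to 162 higher and 144 lower. In cluster 7 there were 995 calls among 10092 features and in oligodendrocytes 3854 among 20036, but depth and nuclei differ between the populations and the counts were not compared by a test. The count was 436 with the 6 animals alone and 394 with all animals thinned to equal totals. With 1 animal left out it ran from 358 (saline animal 2) through 380 (saline animal 1), 398, 472 and 500 (OTV animals 3, 2 and 1) to 1112 (saline animal 3).

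Among the risers was TP53I13, a p53-induced gene, with 40.8, 37.5 and 38.6 CPM in saline animals 1, 2 and 3, 31.0, 21.2 and 31.0 CPM in ASO animals 1, 2 and 3, and 152, 161 and 160.1 CPM in OTV animals 1, 2 and 3. OTV animals stood above all others, with a log2 difference of 1.96 (SE 0.19, adjusted p = 1.95e-04). ADAP1, an Arf GTPase activating protein, had 55.6, 77.0 and 62.2 CPM in the saline animals, 75.4, 89.3 and 77.0 in the ASO animals and 172, 181 and 194 in the OTV animals, with 1.42 (SE 0.17, adjusted p = 6.34e-04). CTBP1, a transcriptional corepressor, had 43.0, 44.8 and 47.2 CPM in the saline animals, 54.2, 48.1 and 45.5 in the ASO animals and 112, 102 and 113 in the OTV animals, with 1.23 (SE 0.17, adjusted p = 0.00144). In each of these genes the 3 OTV animals were the highest of the 9. TMEM259 rose by 1.28 and DPF3, a subunit of the BAF chromatin complex, by 2.05 on the log2 scale. ST18, a zinc finger factor of the oligodendrocyte list, had 22.3, 19.0 and 38.6 CPM in the saline animals, 15.0, 12.9 and 18.1 in the ASO animals and 115, 128 and 119 in the OTV animals in cluster 9, with 2.25 (SE 0.25, adjusted p = 4.59e-04), and a saline mean of 1351 CPM in oligodendrocytes. UGT8, the enzyme of galactosylceramide synthesis in myelin, had 13.6, 17.0 and 32.2 CPM in the saline animals, 18.4, 21.9 and 17.6 in the ASO animals and 90.4, 77.7 and 90.2 in the OTV animals, with 2.15 (SE 0.28, adjusted p = 0.00129). CNTN1 and UNC5C, an adhesion molecule and a netrin receptor, each rose by 1.90, and HHIP, which binds hedgehog ligands, by 2.00. These last 5 genes had a saline level in oligodendrocytes of 482 to 1351 CPM, over 10 times their level in cluster 9.

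Genes that fell with OTV were led, by adjusted p, by NKIRAS1, an inhibitor of NF-kappaB signalling, with 236, 193 and 174 CPM in saline animals 1, 2 and 3, 249, 218 and 225 CPM in ASO animals 1, 2 and 3, and 37.0, 38.8 and 24.8 CPM in OTV animals 1, 2 and 3. OTV animals alone were low, with a log2 difference of -2.61 (SE 0.19, adjusted p = 3.48e-05). ACADS, the short-chain acyl-CoA dehydrogenase of fatty acid oxidation, had 302, 259 and 204 CPM in the saline animals, 309, 250.5 and 310.1 in the ASO animals and 65.4, 48.1 and 47.3 in the OTV animals, with -2.28 (SE 0.19, adjusted p = 1.01e-04). OPRM1, the mu opioid receptor, had 211, 208 and 212 CPM in the saline animals, 327, 238 and 412 in the ASO animals and 66.3, 46.2 and 42.8 in the OTV animals, with -2.02 (SE 0.22, adjusted p = 3.84e-04). Both had all OTV animals below all others. SLC39A13, a zinc transporter, fell by 1.91, GINM1 by 1.29, ALDH3B2 by 2.80, PDZD2 by 1.44 and RASGRP1, a Ras exchange factor, by 1.78 on the log2 scale. These genes, and the 10 risers named above, kept their calls in all 9 fits with 1 animal left out and in every other fit that tested them. IRGC (-2.80) and CP, which encodes ceruloplasmin (-3.82), lost theirs only when each nucleus was thinned to 1000 UMIs.

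**Figure D4:**
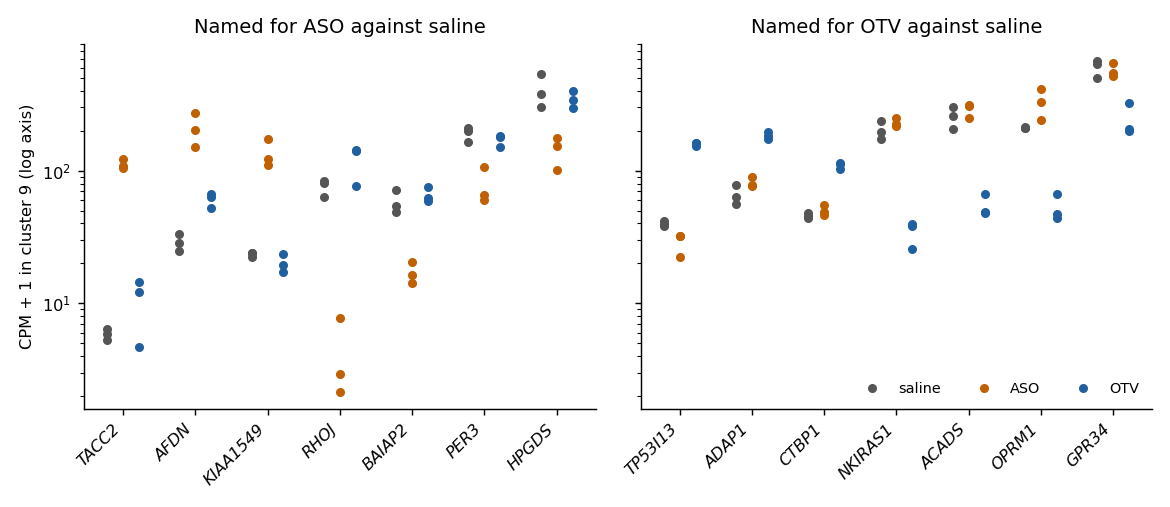
Levels in cluster 9 of 7 genes from the ASO comparison (left) and 7 from the OTV comparison (right), as CPM + 1 on a log axis. Each point is 1 animal, coloured by group, and on the left the ASO animals stand apart from saline and on the right the OTV animals do. All genes but GPR34 were named by a rule that requires no overlap of the compared groups, so their separation was selected.

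With OTV, 2 of the 22 genes of the microglia list fell and none rose, where 4.18% of all features fell and 2.72% rose. An unadjusted p under 0.05 was held by 8 of the 22, and by 2573 of all 11263 features. The list's median log2 difference was -0.14, against -0.03 over all features. The summed list took 1.61, 1.64 and 1.53% of cluster 9 UMIs in the saline animals, 1.63, 1.76 and 1.57% in the ASO animals and 1.54, 1.54 and 1.39% in the OTV animals, with an exact permutation p of 0.0964 over the groups (adjusted p = 0.229). GPR34, a lysophosphatidylserine receptor of microglia, had 639, 677 and 496 CPM in the saline animals, 648, 515 and 547 in the ASO animals and 324, 205 and 198 in the OTV animals. Its OTV animals were the lowest, with a log2 difference of -1.35 (SE 0.19, adjusted p = 0.00202). C1QC, a chain of complement C1q, had 313, 331 and 289.6 CPM in the saline animals, 237, 314 and 387 in the ASO animals and 177, 77.7 and 117 in the OTV animals, with -1.34 (SE 0.27, adjusted p = 0.0171). Its call was lost without saline animal 1, saline animal 2 or OTV animal 3, with an adjusted p of up to 0.0802. CD68, a lysosomal glycoprotein of macrophages, HMOX1, the haem oxygenase of the iron handling list, and LRP1, a receptor for apolipoproteins, passed with log2 differences of -1.12, -0.99 and 0.51. In 7 fits with other settings they kept the call in 2, 1 and 4. They kept it in 3, 1 and 2 of the 9 fits with an animal left out, with adjusted p up to 0.121, 0.154 and 0.164. CSF1R itself had a log2 difference of 0.09 (SE 0.14, adjusted p = 0.754), CX3CR1 of -0.72 (SE 0.27, adjusted p = 0.144) and P2RY12 of -0.27 (SE 0.37, adjusted p = 0.730), none past the threshold, and these markers are given whatever their result.

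Oligodendrocyte genes were the list with most risers among the cell type lists with OTV. MOBP, ST18, ENPP2, UGT8, CTNNA3 and SLC44A1 rose, 6 of 24, and none fell. The list's median log2 difference was 0.75, against -0.03 over all features, where 2.72% had risen. Medians of the lists of oligodendrocyte precursors and astrocytes were also above that of all features, at 0.93 (5 of 6 tested genes above 0) and 0.62 (6 of 9). Of the 6 precursor genes none rose and 1 fell, MEGF11, by -1.22 (SE 0.24, adjusted p = 0.0107), where 4.18% of all features fell. An unadjusted p under 0.05 was held by 4 of the 6, and by 2573 of all 11263 features. The precursor list took 0.00997, 0.0121 and 0.0386% of cluster 9 UMIs in the saline animals and 0.0234, 0.0268 and 0.0185% in the OTV animals, which overlapped, and its part in the differences was not tested. MOBP, a structural protein of myelin, had 15.8, 16.1 and 21.5 CPM in the saline animals, 13.1, 19.7 and 11.4 in the ASO animals and 56.8, 68.4 and 117 in the OTV animals, with 2.15 (SE 0.33, adjusted p = 0.00279). CTNNA3, an alpha catenin, had 81.2, 104 and 204 CPM in the saline animals, 77.9, 84.0 and 106 in the ASO animals and 377, 453 and 480.2 in the OTV animals, with 1.77 (SE 0.29, adjusted p = 0.00717). MOBP lost its call with animals thinned to equal totals (adjusted p = 0.0702). ENPP2 and SLC44A1 lost theirs without saline animal 1, saline animal 2 or OTV animal 1, and SLC44A1 also without OTV animal 2 (adjusted p up to 0.0853 and 0.0792). In oligodendrocytes themselves the log2 difference with OTV was 0.49 for MOBP, 0.03 for ST18, 0.09 for UGT8 and 0.09 for CTNNA3. Of all 306 features that rose with OTV in cluster 9, 120 (39.2%) were over 2-fold higher in oligodendrocytes than in cluster 9 in saline animals. The same held for 14.1% of the features tested (1590 of 11263) and for 20 of the 471 that fell (4.25%). The saline values of cluster 9 enter both this measure and the OTV against saline test, which by itself moves these shares apart. For OTV against ASO, where saline animals are not compared, it held for 288 of 724 risers (39.8%) and 49 of the 851 lower (5.76%).

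The summed oligodendrocyte list took 0.260, 0.301 and 0.337% of cluster 9 UMIs in the saline animals, 0.308, 0.366 and 0.352% in the ASO animals and 0.444, 0.367 and 0.404% in the OTV animals. The OTV animals were the highest 3 of 9, ahead of ASO animal 2 by little. All 24 measured members had UMIs in cluster 9 of every animal, and PLD1, a phospholipase, made up the largest part, at 1272 CPM in cluster 9 against 688 in oligodendrocytes. In the same two-sided exact permutation test the list had p = 0.0179 (adjusted p = 0.107), and OTV against saline gave 0.1, the smallest possible. It was above 0.05 without saline animal 1 (0.075), saline animal 2 (0.0571) or OTV animal 1 (0.0786), and at 0.05 without ASO animal 3 or OTV animal 3. Without PLD1 and TMEM144, which were chosen after their levels were seen, the shares were 0.121, 0.149 and 0.160%, 0.144, 0.214 and 0.183% and 0.318, 0.238 and 0.286%. The list was also summed in other populations. In OTV animals the full list took 0.529, 0.496 and 0.608% in cluster 7 and 0.236, 0.200 and 0.241% in astrocytes, against 0.284, 0.328 and 0.399% and 0.122, 0.151 and 0.134% in saline animals. ASO animals also lay above the saline animals in astrocytes, at 0.195, 0.221 and 0.165%, with ASO animal 2 above OTV animal 2. In oligodendrocyte precursors the list took 0.262, 0.284 and 0.234% in the saline, 0.315, 0.345 and 0.334% in the ASO and 0.323, 0.307 and 0.363% in the OTV animals, and both treated groups were above saline. Neurons differed from this, with 0.125, 0.106 and 0.123% in the saline, 0.513, 0.266 and 0.189% in the ASO and 0.232, 0.112 and 0.117% in the OTV animals, where OTV overlapped saline and the ASO animals were above saline. These neuron values rest on 364, 23 and 527 nuclei in the saline, 18, 17 and 467 in the ASO and 98, 112 and 88 in the OTV animals. The highest values, in ASO animals 1 and 2, thus come from very few nuclei. In oligodendrocytes OTV animals also overlapped saline animals, with 2.32, 2.24 and 2.22% and 2.29, 2.18 and 1.99%. The part of oligodendrocyte RNA in the OTV risers of cluster 9 was not tested.

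**Figure D5:**
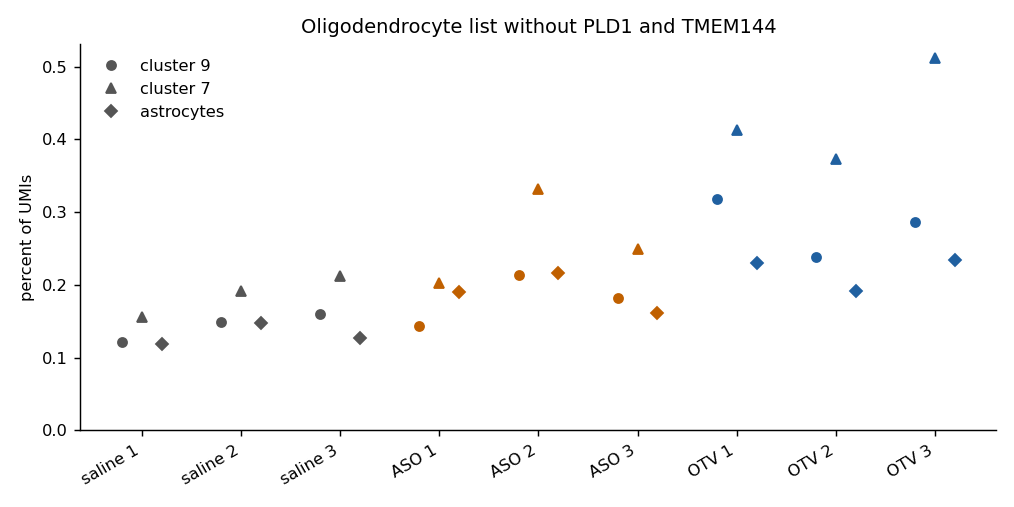
Share of UMIs (vertical axis, percent) from the oligodendrocyte list without PLD1 and TMEM144 in cluster 9, cluster 7 and astrocytes of each animal, coloured by group. The 3 OTV animals have the highest share in cluster 9, and cluster 7 lies above cluster 9 in every animal.

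OTV and the ASO were also set against each other, with the route and number of doses differing between them. Of 11263 features 1575 (14%) passed, 724 higher (6.43%) and 851 lower (7.56%) with OTV. With nuclei thinned to 1000 UMIs more features were higher than lower, 323 against 275. Both contrasts above share the saline animals, and this one uses none of them apart from the common estimate of spread. Among the genes higher with OTV were TP53I13, at 2.50 (SE 0.18, adjusted p = 1.90e-05), UNC5C, at 3.31 (SE 0.29, adjusted p = 3.76e-05), and RHOJ, at 5.23 (SE 0.46, adjusted p = 1.20e-04). NKIRAS1 was lower with OTV, at -2.76 (SE 0.19, adjusted p = 1.67e-05), and OPRM1 was lower by -2.61 (SE 0.22, adjusted p = 3.33e-05). In the microglia list P2RY13, a purinergic receptor, had 260.3, 302 and 197 CPM in the saline animals, 464, 406 and 283 in the ASO animals and 172, 104 and 42.8 in the OTV animals, with -1.79 (SE 0.41, adjusted p = 0.0265) (adjusted p up to 0.0933 without ASO animal 1, ASO animal 2 or OTV animal 2), and ADAM28, a metalloprotease of leukocytes, had -0.80 (SE 0.17, adjusted p = 0.00843). GPR34 and C1QC were also lower with OTV, so 4 of 22 were lower. INPP5D alone was higher, by 0.34 (SE 0.10, adjusted p = 0.0495), and lost that call whichever animal was left out (adjusted p from 0.0581 to 0.158). STAB1, a scavenger receptor of macrophages, had 219, 168 and 348 CPM in the saline animals, 102, 124 and 133 in the ASO animals and 233, 383 and 352 in the OTV animals and was higher with OTV by 1.40 (SE 0.27, adjusted p = 0.00839). MS4A4A was lower, by -3.58 (SE 0.55, adjusted p = 0.00152), so 1 of 7 border macrophage genes was higher and 1 lower, and both kept their calls with any 1 animal left out. NPC1 and NPC2, which export cholesterol from lysosomes, were lower with OTV, with log2 differences of -0.55 and -1.58. LRP1 was higher, by 0.80 (SE 0.14, adjusted p = 0.00293), so 1 of 15 lipid handling genes was higher and 2 were lower. LRP1 kept its call with any 1 animal left out. NPC2 kept its call with any 1 animal left out and NPC1 in 4 of 9 such fits. Without ASO animal 1 the count of calls was 856, and without OTV animal 3 it was 980.

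Mitochondrially encoded genes split the animals by group in cluster 9 and in oligodendrocytes. The 13 listed genes together took 0.0230, 0.0136 and 0.00343% of cluster 9 UMIs in the saline animals, 3.87e-04, 7.57e-04 and 4.65e-04% in the ASO animals and 0.126, 0.0359 and 0.0710% in the OTV animals. Oligodendrocytes had 0.0288, 0.0127 and 0.00473%, 3.80e-04, 8.03e-04 and 5.90e-04% and 0.143, 0.0547 and 0.0749%. The groups did not overlap in either, nor in the other populations named. Cluster 7 had 0.0233, 0.0177 and 0.00577%, 1.34e-04, 0.00114 and 2.98e-04% and 0.150, 0.0728 and 0.116%. The ASO values lie near the floor, as ASO animal 1 had 2067631 UMIs in cluster 9, of which these genes took 3.87e-04%. In cluster 9, 5 of 11 tested genes were higher with OTV than with saline, where 2.72% of all features were. All 11 had an unadjusted p under 0.05, as had 2573 of all 11263 features. Each of the 5 calls was lost in some fits with 1 animal left out, COX3 in 6 of 9, ND4L and ND5 in 4, ATP8 in 3 and COX1 in 2, with adjusted p up to 0.155. All 5 were lost without saline animal 2 and all 5 without OTV animal 1. COX3, ND4L, ATP8 and ND5 were also lost without OTV animal 3, ND4L and COX3 without saline animal 1, ND5 without OTV animal 2, and COX3 without ASO animal 1 or ASO animal 3. COX1 lost its call with nuclei thinned to 1000 UMIs and within the doublet score limit of each animal (adjusted p up to 0.0892). COX3 lost its call with no filter on low counts and in the fit of 6 animals (adjusted p up to 0.0874). COX1, 1 of the 11, was lower with the ASO than with saline, where 0.231% of all features were, while 10 of the 11 had an unadjusted p under 0.05 and 0 of 11 a log2 difference above 0, with a median of -4.76. For ASO against saline 1072 of all 11263 features had an unadjusted p under 0.05. All 11 tested genes of the list were higher with OTV than with the ASO, where 6.43% of all features were. COX1, a subunit of cytochrome c oxidase, had 16.3, 8.28 and 2.15 CPM in the saline animals, 1.93, 1.14 and 1.03 in the ASO animals and 55.1, 33.3 and 54.1 in the OTV animals. Its call for ASO against saline was kept in 1 of 9 fits with an animal left out, the one without saline animal 3, and its adjusted p reached 0.181. Mitochondrial transcripts are made outside the nucleus, and what they carry of the other differences between groups was not tested.

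Few features passed the test of a difference in response between the myeloid clusters, which does not show that the clusters responded alike. In edgeR's test of the interaction over 10972 features, with animal as a block, 7 (0.0638%) passed with the ASO and 1 (0.00911%) with OTV, each relative to saline, and 13 (0.118%) passed for OTV relative to the ASO. GPRIN3 had 2.18, 25.3 and 27.9 CPM in the saline animals, 0.484, 0 and 5.17 in the ASO animals and 1.72, 5.55 and 51.9 in the OTV animals in cluster 9, and 12.1, 37.8 and 16.3 CPM in the saline animals, 20.0, 0.875 and 157 in the ASO animals and 3.77, 5.20 and 22.6 in the OTV animals in cluster 7. ASO animal 3 of cluster 7 stood out. The difference in response to the ASO was -4.28 (SE 0.55, adjusted p = 1.29e-06). EPHB1, an ephrin receptor, had 63.7, 30.2 and 38.6 CPM in the saline animals, 0.484, 0 and 5.17 in the ASO animals and 43.1, 55.5 and 18.04 in the OTV animals in cluster 9 and 1.34, 2.63 and 47.7 CPM in the ASO animals of cluster 7, with -3.76 (SE 0.52, adjusted p = 2.56e-06). SYTL3, a regulator of vesicle release, had 1.93, 1.51 and 2.58 CPM in the ASO animals of cluster 9 and 5.35, 2.63 and 119 in those of cluster 7, with -3.40 (SE 0.55, adjusted p = 0.00131). In the same animal of cluster 7 lay 35 of the 66 nuclei with lymphocyte UMIs, and the lymphocyte list took 0.0306, 0.0164 and 0.154% of cluster 7 UMIs in the ASO animals, 0.0241, 0.0279 and 0.00836% in the saline animals and 0.00904, 0.00763 and 0.00484% in the OTV animals. Once nuclei with at least 3 lymphocyte UMIs were left out of cluster 7, the ASO difference was -0.60 for GPRIN3 and -0.03 for SYTL3, neither called, and -4.00 for EPHB1, which was the 1 call left. Without ASO animal 3 no feature was called for ASO against saline, 463 of 11379 having an unadjusted p under 0.05.

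PSD3, an exchange factor for the GTPase ARF6, was the feature that differed for OTV against saline. It had 64.8, 135 and 139 CPM in the saline animals and 115, 122 and 138 in the OTV animals of cluster 9, and 56.4, 88.2 and 134 and 165, 232 and 271 in those of cluster 7. In cluster 7 the OTV animals were above the saline animals, and in cluster 9 they overlapped. The difference was -1.07 (SE 0.20, adjusted p = 0.00685), and it lost the call with nuclei thinned and without saline animal 2 or OTV animal 2 (adjusted p up to 0.698). MDGA2, an adhesion molecule, differed for OTV against ASO by -0.72 (SE 0.14, adjusted p = 0.00674), and was not called without ASO animal 1 (adjusted p = 0.262).

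Differences in response from oligodendrocytes were tested in the same way. Of 14545 features 38 (0.261%) passed with the ASO and 152 (1.05%) with OTV, each relative to saline, and 530 (3.64%) passed for OTV relative to the ASO. These counts ran, with 1 animal left out, from 9 (ASO animal 2) to 63 (saline animal 3), from 43 (OTV animal 3) to 503 (saline animal 3) and from 217 (OTV animal 1) to 845 (saline animal 3). The response was more positive in cluster 9 for 94 of the 152 and more negative for 58, and with DESeq2's size factors for 133 and 35. For OTV relative to the ASO the split was 268 and 262, and with those size factors 322 and 170. Over all features the median difference was -0.11 in both OTV contrasts, and the change of size factors moved that of MALAT1 from -0.05 to 0.0844 for OTV relative to saline. TACC2 rose with the ASO in cluster 9 and had 4.80, 8.28 and 8.34 CPM in saline and 8.52, 4.91 and 6.09 CPM in ASO oligodendrocytes, with a difference of 4.55 (SE 0.43, adjusted p = 3.75e-04). KIAA1549 had 7.09, 8.45 and 17.7 and 3.29, 4.18 and 4.54 CPM there, with 3.77 (SE 0.31, adjusted p = 9.96e-05). RHOJ had 6.92, 6.24 and 5.42 and 8.39, 6.77 and 9.85 CPM, with -5.06 (SE 0.39, adjusted p = 9.96e-05). These 3 differences were called with any 1 animal left out. CHKA fell in cluster 9 and had 146, 134 and 134 and 179, 188 and 194 CPM in oligodendrocytes, with -1.23 (SE 0.17, adjusted p = 0.00810), and without ASO animal 2 its adjusted p was 0.0504.

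With OTV, PTPN6, the phosphatase SHP-1 of blood cells, had 35.9, 56.5 and 32.2 CPM in the saline and 62.0, 68.4 and 76.7 CPM in the OTV animals of cluster 9, and 34.5, 33.8 and 33.2 and 9.72, 7.75 and 6.94 CPM in oligodendrocytes. In oligodendrocytes it fell by 2.00 (adjusted p = 4.00e-04), and did not pass in cluster 9, with a difference of 2.57 (SE 0.27, adjusted p = 0.00127). TCHP, a keratin-binding protein of centrosomes, had 119.8, 121 and 85.8 and 47.4, 35.1 and 38.3 CPM in cluster 9 and 63.4, 61.4 and 52.5 and 104, 81.3 and 80.0 CPM in oligodendrocytes, with -2.17 (SE 0.18, adjusted p = 3.26e-04). SLC39A13 had 252, 322 and 210.2 and 86.1, 70.3 and 56.4 CPM in cluster 9 and 26.2, 30.1 and 25.9 and 36.3, 41.4 and 45.1 CPM in oligodendrocytes, with -2.57 (SE 0.24, adjusted p = 4.41e-04). Both genes were lower in the OTV animals of cluster 9 and higher in those of oligodendrocytes. UGT8 and ST18 rose in cluster 9 with little difference in oligodendrocytes, by 2.02 (SE 0.25, adjusted p = 0.00381) and 2.19 (SE 0.28, adjusted p = 0.00433). ACADS, by contrast, fell in both, by -2.28 in cluster 9 and -2.53 in oligodendrocytes.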

How the data were processed

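Per the submitters' processing notes, Cell Ranger 6.1.2, Seurat 4 and the build name GRCh38.p13 were used, with no role stated, and the features carry macaque identifiers. The authors deposited raw UMI counts for 79994 nuclei and 29128 features, 14893 of them with a symbol, and a table with cell types, 17 clusters and a doublet score per nucleus. Which tool gave that score is not stated in these sources. The authors' table marks each deposited nucleus as a singlet, and no nucleus was removed here.

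Counts were summed per animal and cluster. edgeR 4.0.16 in R 4.3.3 was used with TMM, filterByExpr and quasi-likelihood fits of the 9 animals, Benjamini-Hochberg adjustment over all features tested, and a threshold of 0.05. Differences in response between clusters were tested as an interaction with animal as a block. Exact permutation tests used 280 partitions of the animals, or 10 splits for a pair of groups. DESeq2 1.42.0 was an alternative, beside other size factors, no filter, 6 animals alone, nuclei thinned to 1000 UMIs, a doublet score limit, equal totals and each animal left out. The statistics were tested on simulated data for OTV against saline. In cluster 9 the test recovered 89 of 397 2-fold changes and 296 of 398 4-fold changes, and 4.94% of its calls were false. For the difference in response from cluster 7 it recovered 19 of 398 and 184 of 399, and 8.15% of calls were false.

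Cluster 9 and its comparisons were chosen, and 22 gene lists with 252 measured members were fixed, with earlier results of these data known. MALAT1 and TFRC are always named. Per contrast, up to 10 called features with a symbol are named in each direction, or 5 for OTV against ASO and for differences in response, by smallest adjusted p. For treatment contrasts the groups' animals do not overlap. Called list members may be named, and the 10 features with a symbol and the largest median within-animal log2 ratio in each direction (1 CPM added, over 20 CPM in either population, same sign in 9 animals) describe cluster 9 against the others.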

Additional observations from a re-analysis of the deposited data

Results flagged for a closer look

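These results stand here because the response of cluster 9 differed from that of another cell population in edgeR's test of the interaction, on the log2 scale, with the response in cluster 9 minus the other. Against cluster 7, the response to the ASO relative to saline differed by -4.28 for GPRIN3, -3.76 for EPHB1 and -3.40 for SYTL3, and the response to OTV relative to saline differed by -1.07 for PSD3. For OTV relative to the ASO the differences were 5.32 for GPRIN3, 3.20 for EPHB1, 3.80 for SYTL3 and -0.716 for MDGA2. Without the cluster 7 nuclei with lymphocyte UMIs, the difference for OTV relative to the ASO was 1.01 for GPRIN3 (edgeR adjusted p = 0.954) and -0.059 for SYTL3 (adjusted p = 0.9995), while EPHB1 kept its call at 3.43. With nuclei thinned to 1000 UMIs, EPHB1 (adjusted p = 0.793) and SYTL3 (adjusted p = 0.625) lost their calls. EPHB1 and SYTL3 also lost them without ASO animal 3, and GPRIN3 without OTV animal 3. Each of the 3 genes with the largest differences had its highest ASO value in cluster 7 of ASO animal 3.

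Against oligodendrocytes, the response to the ASO differed by 3.77 for KIAA1549, 4.55 for TACC2, -5.06 for RHOJ and -1.23 for CHKA. The response to OTV relative to saline differed by 2.57 for PTPN6, 2.02 for UGT8, -2.17 for TCHP and -2.57 for SLC39A13. For OTV relative to the ASO it differed by 7.04 for RHOJ, 2.14 for ADCY7, -2.13 for TCHP and -3.99 for KIAA1549. ADCY7, an adenylyl cyclase of blood cells, had 280.03, 327 and 312 CPM in the ASO animals and 379, 379 and 316 in the OTV animals of cluster 9, where the groups overlap, and 28.4, 20.8 and 28.3 and 5.99, 6.34 and 5.81 CPM in oligodendrocytes, where they do not.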

How the results depend on the processing

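In cluster 9, 47 features were called with the ASO and 777 with OTV, each relative to saline, and 1575 between the treatments. With no filter on low counts the number was 414 and 1396 for the first 2, and DESeq2 gave 159 for ASO against saline. Fitting the 6 compared animals alone gave 436 for OTV against saline. Thinning each nucleus to 1000 UMIs gave 306 with OTV relative to saline and 598 between the treatments, and thinning animals to equal totals, an alternative chosen after seeing the data, gave 31, 394 and 865. With 1 animal left out the counts were 14 to 69, 358 to 1112 and 856 to 1886. For the difference in response from cluster 7 they were 7, 1 and 13, then 13, 2 and 24 with no filter. With nuclei thinned they were 1 and 0 for the first 2, and beside the 0 stood 398 of 6734 features with an unadjusted p under 0.05 in edgeR. Without the cluster 7 nuclei with lymphocyte UMIs, also chosen after seeing the data, the counts were 1, 2 and 5. They were 0 to 25, 0 to 20 and 4 to 37 with 1 animal left out. In edgeR the count was 0 for ASO against saline without ASO animal 3, and 0 for OTV against saline without saline animal 2 or OTV animal 2. An unadjusted p under 0.05 was held there by 463 of 11379, 549 of 11318 and 543 of 11781 features. For the difference from oligodendrocytes the counts were 247, 515 and 941 with no filter, and 9 to 63, 43 to 503 and 217 to 845 with 1 animal left out. The cause was not tested; where animals, features or UMIs were removed, the fit had fewer of them.

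MALAT1 with OTV against saline passed in DESeq2 (-0.87) and in the fit of 6 animals (-0.86), and its log2 difference was -0.94 to -0.83 with 1 animal left out. For OTV against ASO it was -0.66 to -0.0776. With 1 animal left out the exact p over the groups was 0.0107 to 0.200 for the MALAT1 share, 0.0179 to 0.0786 for the oligodendrocyte list and 0.0464 to 0.250 for the microglia list, for which the value with all animals was 0.0964 and the mean over nuclei gave 0.0321. Signs turned for some values near 0. TFRC gave 0.051 for OTV against ASO with nuclei thinned, -0.0903, -0.0324 and 0.0579 for the 3 contrasts within the doublet score limit of each animal, and -0.0931 to 0.21 for OTV against saline with 1 animal left out, while OTV minus ASO ran over -0.29 to 0.0206. The MALAT1 difference in response from cluster 7 was 0.047 for ASO against saline and -0.0325 for OTV against ASO with no filter, -0.00733 for OTV against saline with nuclei thinned, and 0.039, -9.57e-06 and -0.039 for the 3 contrasts without the nuclei with lymphocyte UMIs. From oligodendrocytes it was 0.0844 for OTV against saline with DESeq2's size factors and 0.0153 with nuclei thinned. With 1 animal left out the 3 contrasts gave -0.0853 to 0.0751, -0.0385 to 0.0725 and -0.0605 to 0.11 against cluster 7, and -0.43 to 0.27, -0.15 to 0.0156 and -0.33 to 0.37 against oligodendrocytes. The differences of SYTL3 and BTBD11 for OTV against ASO turned to -0.059 and -1.45 without the nuclei with lymphocyte UMIs.

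No paired analysis was possible because the animal numbers in the labels do not link animals of different groups. The planned limit on the doublet score over all animals was not run, since it left saline animal 3 and OTV animal 2 with 0 nuclei, and a limit per animal, chosen after seeing the data, took its place. The shallowest animal had 443557 UMIs in cluster 9, so a level of 1 CPM there is under 1 UMI.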

Other observations

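CD4, a coreceptor that macrophages can also carry, differed widely among the saline animals. In cluster 9 it had 226, 6.82 and 174 CPM in saline animals 1, 2 and 3, 0, 0 and 2.07 CPM in ASO animals 1, 2 and 3, and 0.861, 1.85 and 0 CPM in OTV animals 1, 2 and 3. In cluster 7 it had 203, 2.65 and 177 CPM in the saline animals, 6.68, 2.63 and 11.9 in the ASO animals and 0.754, 0 and 3.23 in the OTV animals. Saline animals 1 and 3 were high in both clusters, and saline animal 2 was low in both, like the treated animals. In cluster 9 the log2 difference was -7.63 (SE 1.67, adjusted p = 0.172) for the ASO and -7.09 (SE 1.97, adjusted p = 0.0880) for OTV against saline, with edgeR, and neither passed. The difference between the clusters in the response to the ASO was called, at -3.39 (SE 0.70, adjusted p = 0.0167). It was lost without the cluster 7 nuclei with lymphocyte UMIs, with nuclei thinned, and without ASO animal 1, ASO animal 3 or saline animal 1 (adjusted p up to 0.772).

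Single genes of the inflammatory cytokine, activated microglia and complement lists differed between the treatments, where 14% of all features did. Of 9 tested inflammatory cytokine genes 1 was lower with OTV than with the ASO, IL6, and 1 was higher, IL1A. IL6 had 20.7, 14.6 and 4.29 CPM in the saline animals, 17.4, 10.2 and 33.6 in the ASO animals and 4.31, 5.55 and 4.51 in the OTV animals in cluster 9, with a log2 difference of -2.09 (SE 0.62, adjusted p = 0.0421) for OTV against ASO. IL1A, which encodes interleukin 1 alpha, had 4.90, 5.85 and 0 CPM in the saline animals, 0.484, 0.378 and 1.03 in the ASO animals and 7.75, 5.55 and 2.25 in the OTV animals, with 3.06 (SE 0.85, adjusted p = 0.0320). Its animals held 0 to 12 UMIs each. It was tested in 4 of the 9 fits with 1 animal left out and lost its call without OTV animal 1 or OTV animal 2 (adjusted p up to 0.202). Of 11 tested activated microglia genes 1 was higher, CLEC7A, and 1 lower, CD68, and of 7 complement genes 1 was higher, ITGB2, and 1 lower, C1QC. CD68 had 31.0, 37.0 and 23.6 CPM in the saline animals, 35.8, 42.4 and 39.3 in the ASO animals and 17.2, 14.8 and 11.3 in the OTV animals, with -1.39 (SE 0.27, adjusted p = 0.00502), and C1QC had -1.31 (SE 0.27, adjusted p = 0.0106). CD68 kept its call with any 1 animal left out but not with nuclei thinned to 1000 UMIs, and C1QC lost it without OTV animal 3 (adjusted p = 0.0511). CLEC7A, the beta-glucan receptor dectin 1, had 36.5, 99.9 and 36.5 CPM in the saline animals, 31.0, 20.4 and 10.9 in the ASO animals and 95.6, 129 and 67.6 in the OTV animals, with 2.22 (SE 0.49, adjusted p = 0.0192). ITGB2, the beta chain of leukocyte integrins, had 101, 58.5 and 53.6 CPM in the saline animals, 42.6, 56.0 and 56.8 in the ASO animals and 106, 94.3 and 110.5 in the OTV animals, with 0.98 (SE 0.24, adjusted p = 0.0191). In cluster 9 none of IL6, IL1A, CLEC7A and ITGB2 passed for either treatment against saline. With 1 animal left out, IL6 kept its call in 3 of 9 fits, without ASO animal 2, saline animal 1 or saline animal 3 (adjusted p up to 0.146). CLEC7A lost its call without ASO animal 2, OTV animal 1 or OTV animal 2 (up to 0.0712), and ITGB2 without ASO animal 1, OTV animal 1 or OTV animal 3 (up to 0.0726). IL6 and ITGB2 also lost theirs with animals thinned to equal totals, and ITGB2 with each nucleus thinned to 1000 UMIs.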
